A study of Mus musculus with 6 samples.

Results

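Epithelial-mesenchymal transition, the change by which cells joined in a sheet lose their contacts and take on the form of motile connective tissue cells, was followed through 10 genes in Dnmt3a knockout (KO) and control (WT) ectopic lesions of mice. The genes were taken by name: the transcription factors Snai1, Snai2, Zeb1, Zeb2, Twist1 and Twist2, the mesenchymal proteins Cdh2 and Vim, and the epithelial proteins Cdh1 and Epcam. All 10 were found among the 56884 genes of the count table, and all 10 were among the 18177 genes tested. Endometriotic lesions are pieces of endometrium growing outside the uterus. The control donors were Dnmt3a f/f mice, in which part of the DNA methyltransferase gene Dnmt3a is flanked by recombination sites, and the KO donors were Dnmt3a f/f:PR Cre/+ mice, in which Cre recombinase removes that part in cells that express the progesterone receptor. Donors of both groups were 8 weeks old and had been given 17β-estradiol, and the recipients of both groups were wild-type females with an estrogen pellet, so that cells of the host in a lesion kept Dnmt3a. The sample labels describe uterine fragments injected into the peritoneal cavity and a time of 4 weeks, while the methods of the study describe a fragment sutured to the mesenteric membrane and collection on day 21. Messenger RNA of each of 3 WT and 3 KO lesions gave 1 library, with 45370342 to 57239184 counts.

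SNAI1, SNAI2, ZEB1, ZEB2, TWIST1 and TWIST2 are repressors and activators that bind E-boxes in DNA and lower the transcription of epithelial genes, above all Cdh1. Cdh1 encodes E-cadherin, which joins neighbouring epithelial cells, and Epcam encodes an epithelial cell adhesion molecule. Cdh2 encodes N-cadherin, which is found on many mesenchymal and nerve cells, and Vim encodes vimentin, the intermediate filament of fibroblasts, endothelium and leukocytes. The stroma of the endometrium expresses the mesenchymal genes without any transition having taken place, and its glands and lining express the epithelial ones. In a whole piece of tissue, fewer cells of a type and less RNA per cell cannot be told apart.

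No member passed the test across all genes. At an adjusted p under 0.05 (edgeR, quasi-likelihood, adjusted by Benjamini and Hochberg over all genes tested), 0 of the 10 members were called, against 0.0055% of all genes tested. At the threshold the study used, an unadjusted p under 0.05 with a log2 fold change beyond 1 either way, 0 of the 10 were called, against 8.96% of all genes. At an unadjusted p under 0.05 alone, 2 of the 10 were called, Snai2 and Twist2, both higher in KO, against 14.7% of all genes in either direction and 6.55% in that direction. Both calls were lost when any one lesion other than KO replicate 2 was left out. No member had all 3 KO libraries on one side of all 3 WT libraries, whereas 19.4% of all genes did, 10.7% with KO higher and 8.74% with KO lower. Of the 10 genes, 7 shared an arrangement over the KO libraries, described below: in KO replicates 1 and 2 Cdh1 and Epcam were high and Vim, Snai1, Zeb1, Zeb2 and Twist1 were low, and in KO replicate 3 they were not. Snai2, Twist2 and Cdh2 did not have it.

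The E-box that SNAI and ZEB proteins are known to bind is CAGGTG, which reads CACCTG on the other strand. Promoter windows from 250 bases before to 50 bases after the start of transcription were available in RefSeq on GRCm38.p6 for 6 of the members, Epcam, Snai1, Twist1, Twist2, Vim and Zeb2, and Cdh1 had no entry. Both strands were searched for the motif, and it occurs at least once in 20.2% of 32851 promoter windows of the same length and at least 2 times in 2.88% of them. The windows of Epcam and Snai1 are shown because they alone, among the members with an entry, hold the motif, given in capitals. The Epcam window lies at chr17:87635729-87636028 on the plus strand, with motifs beginning at positions -187 and -19 from the start of transcription. The Snai1 window lies at chr2:167537945-167538244 on the plus strand, with a motif beginning at position -126.
Epcam: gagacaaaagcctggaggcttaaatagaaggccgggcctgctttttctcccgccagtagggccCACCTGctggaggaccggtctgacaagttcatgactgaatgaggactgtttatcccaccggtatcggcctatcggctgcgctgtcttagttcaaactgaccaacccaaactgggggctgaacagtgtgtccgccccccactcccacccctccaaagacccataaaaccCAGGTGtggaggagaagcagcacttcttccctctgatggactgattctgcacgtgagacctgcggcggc
Snai1: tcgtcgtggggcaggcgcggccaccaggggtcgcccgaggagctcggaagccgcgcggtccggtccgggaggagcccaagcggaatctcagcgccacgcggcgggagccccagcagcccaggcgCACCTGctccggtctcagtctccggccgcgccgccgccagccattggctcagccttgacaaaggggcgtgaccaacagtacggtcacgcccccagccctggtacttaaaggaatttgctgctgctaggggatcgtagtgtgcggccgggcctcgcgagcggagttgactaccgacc
The windows of Twist1 and Twist2 are shown because the ratio of this pair, given below, did not overlap between the groups and because DNMT3A methylates the cytosine of CG pairs, which are in capitals here. The Twist1 window, at chr12:33957421-33957720 on the plus strand, holds 27 CG pairs, and 15.5% of promoter windows hold at least as many. The Twist2 window, at chr1:91801211-91801510 on the plus strand, holds 25, and 18.4% of windows hold at least as many. The Snai1 window holds 34 CG pairs, a number that 7.73% of windows reach.
Twist1: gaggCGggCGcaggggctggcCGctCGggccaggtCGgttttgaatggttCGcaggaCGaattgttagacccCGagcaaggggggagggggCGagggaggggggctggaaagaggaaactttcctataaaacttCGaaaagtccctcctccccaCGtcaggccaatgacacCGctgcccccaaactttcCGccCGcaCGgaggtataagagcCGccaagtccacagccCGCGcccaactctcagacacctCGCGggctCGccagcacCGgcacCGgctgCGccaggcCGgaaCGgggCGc
Twist2: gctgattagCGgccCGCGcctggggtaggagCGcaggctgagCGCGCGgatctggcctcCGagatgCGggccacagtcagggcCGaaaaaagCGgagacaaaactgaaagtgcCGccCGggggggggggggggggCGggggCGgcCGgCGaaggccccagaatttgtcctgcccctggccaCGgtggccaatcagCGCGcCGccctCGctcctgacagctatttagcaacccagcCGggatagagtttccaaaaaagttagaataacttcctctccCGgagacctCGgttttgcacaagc
Methylation was not measured in these libraries, and the letters alone do not show whether a factor binds or a site is methylated.

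The targeted gene was read first. Dnmt3a stood at 43.9 to 52.7 CPM (counts relative to the library total after TMM scaling) in the WT and at 30.3 to 36.2 CPM in the KO libraries, so that the groups did not overlap, with a log2 fold change of -0.57 (SE 0.14, adjusted p = 0.321 from edgeR). The remaining reads come from all cells of a lesion and from all parts of the gene, the parts outside the deletion included. Pairs of libraries with the same replicate number were not known to share an animal or a day. Nothing in the labels says more of how the 3 lesions of a group relate than that the methods name 3 donors, and p-values measure the spread between these libraries.

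Both libraries and cell types stood apart in places that touch the members. WT replicate 2 held 10031 CPM of 8 neutrophil markers, against 229 and 498 CPM in the other WT libraries and 43.3 to 221 CPM in KO. WT replicates 1 and 3 held 29657 and 31686 CPM of skeletal muscle markers, against 5.58 to 16.2 CPM in all others, and WT replicate 3 also held 5773 CPM of pancreatic acinar markers, against 7.31 to 16 CPM. KO replicate 3 held 5397 CPM of adipocyte markers, against 606 and 1201 CPM in the other KO and 2722 to 3020 CPM in the WT libraries. Of the 10 endometrial epithelium markers, all but Cdh16 reached 1 CPM in some library, and their sum was 15689 to 25135 CPM in WT, against 22395 to 47038 CPM in KO, so the labelled tissue was present. Of 10 intestinal markers, 8 were under 1 CPM in every library and Alpi was at 0 throughout.

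**Figure D1:**
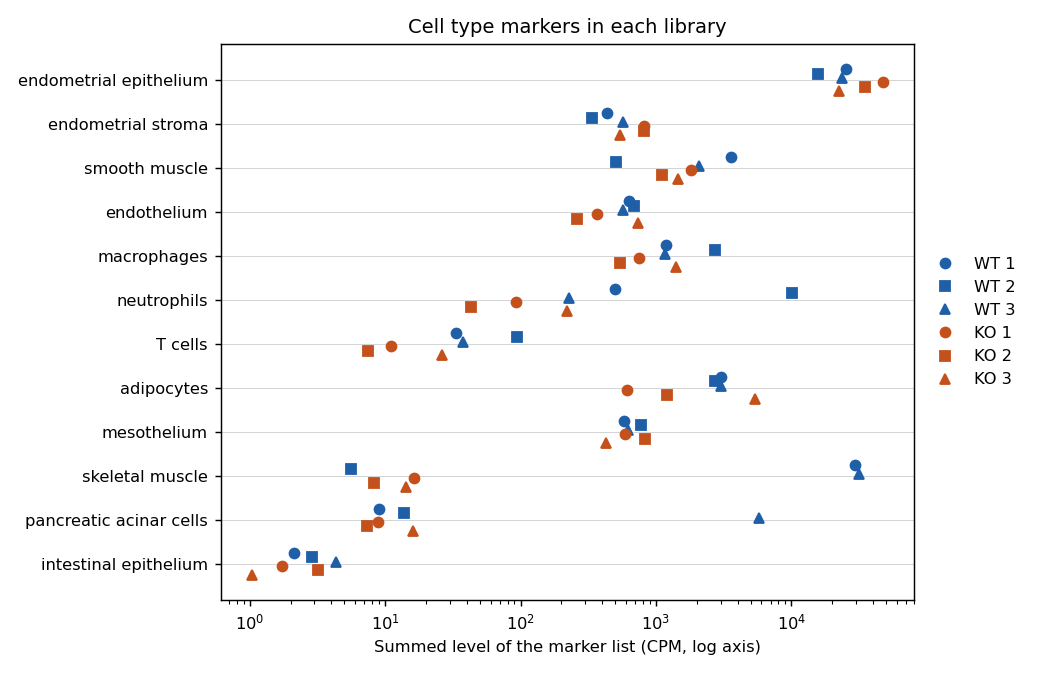
Summed level of each marker list in CPM on a log axis, one point per library, blue for WT and orange for KO, with circles, squares and triangles for replicates 1, 2 and 3. Neutrophil markers reach 10031 CPM in WT replicate 2, skeletal muscle markers are at 29657 and 31686 CPM in WT replicates 1 and 3, and the endothelial sum is lowest in KO replicates 1 and 2.

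Levels of different genes were compared per kilobase of exon. In the WT lesions Vim, Epcam and Cdh1 stood at 153 ± 29.3, 140 ± 42.1 and 108 ± 32.6 CPM per kb (SD, n = 3), and their ranges overlapped. The transcription factors followed at a level more than 10 times lower, in the order Zeb2, Zeb1, Snai2, Twist1 and Snai1, from 9.07 ± 5.74 down to 5.86 ± 5.79 CPM per kb (SD, n = 3), with overlap between each neighbouring pair. Twist2, at 1.52 ± 0.273 CPM per kb, and Cdh2, at 0.651 ± 0.24 CPM per kb, did not overlap with the gene above them. In the KO lesions Epcam came first, at 167 ± 62.3 CPM per kb, then Cdh1 at 156 ± 52.9 and Vim at 107 ± 64.2 CPM per kb, again with overlap. Snai2 was the highest transcription factor there, at 12.6 ± 5.01 CPM per kb, and overlapped with Zeb1, while Snai1 stood lower in the order, at 1.44 ± 1.13 CPM per kb, next to Twist2 and Cdh2 and overlapping with both.

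The epithelial members were higher in 2 of the 3 KO lesions and not in the third. Cdh1 (ENSMUSG00000000303) stood at 495, 345 and 643 CPM in WT replicates 1, 2 and 3 and at 877, 829 and 436 CPM in KO replicates 1, 2 and 3. Of the KO lesions, replicates 1 and 2 lay above every WT lesion and replicate 3 lay between WT replicates 2 and 1, so the groups overlapped. The log2 fold change was 0.53 (SE 0.36, adjusted p = 0.483 from edgeR), and 0.79 (SE 0.30, unadjusted p = 0.0458, adjusted p = 0.203 from edgeR) without KO replicate 3. KO replicate 3 was singled out after its values were seen, here and for the other members. Leaving out any one lesion gave 0.33 to 0.79 for Cdh1. Epcam (ENSMUSG00000045394) stood at 240, 268 and 412 CPM in WT and at 468, 420 and 211 CPM in KO. It had the same arrangement: KO replicates 1 and 2 were the highest of the 6 libraries, and KO replicate 3 was the lowest. Its log2 fold change was 0.26 (SE 0.36, adjusted p = 0.743 from edgeR), and leaving out any one lesion gave 0.04 to 0.54.

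Vim (ENSMUSG00000026728) ran largely opposite to Cdh1 by library. It stood at 785, 829 and 569 CPM in WT and at 334, 327 and 858 CPM in KO replicates 1, 2 and 3. The first 2 KO lesions lay below every WT lesion, and KO replicate 3 was the highest of all 6. The log2 fold change was -0.52 (SE 0.43, adjusted p = 0.566 from edgeR), and -1.14 (SE 0.23, unadjusted p = 0.00442, adjusted p = 0.122 from edgeR) without KO replicate 3. It was -0.29 without KO replicate 1 and also without KO replicate 2. Cdh2 (ENSMUSG00000024304), at 3.29, 7.16 and 5.30 CPM in WT and at 2.39, 6.12 and 4.63 CPM in KO, was low everywhere and showed no such split. Its log2 fold change was -0.26 (SE 0.45, adjusted p = 0.789 from edgeR), resting on 136 to 318 counts per library, and it was 0.03 without WT replicate 2 and also without KO replicate 1.

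The ZEB genes encode zinc-finger homeobox repressors of Cdh1. Zeb1 (ENSMUSG00000024238) stood at 85.7, 64.2 and 84.9 CPM in WT and at 52.6, 42.4 and 95.8 CPM in KO. Again KO replicates 1 and 2 lay below every WT lesion and KO replicate 3 above every one, with a log2 fold change of -0.30 (SE 0.33, adjusted p = 0.665 from edgeR) that became -0.72 (SE 0.20, unadjusted p = 0.0153, adjusted p = 0.154 from edgeR) without KO replicate 3. Without KO replicate 2 the change of Zeb1 was -0.07. Zeb2 (ENSMUSG00000026872), which macrophages and other leukocytes also express, stood at 109, 313 and 121 CPM in WT and at 76.3, 67.9 and 203 CPM in KO. WT replicate 2 was the highest and KO replicate 3 the next, and these were also the libraries with the highest sums of macrophage markers, at 2732 and 1396 CPM against 542 to 1183 CPM in the others. The part of the macrophages in the level of Zeb2 was not tested. The log2 fold change of Zeb2 was -0.64 (SE 0.60, adjusted p = 0.609 from edgeR) and went to 0.01 without WT replicate 2.

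The TWIST genes encode basic helix-loop-helix factors. Twist1 (ENSMUSG00000035799) stood at 10.8, 8.06 and 10.2 CPM in WT and at 6.70, 5.56 and 11.3 CPM in KO, which is the arrangement of Zeb1 at a lower level. Its log2 fold change was -0.31 (SE 0.31, adjusted p = 0.635 from edgeR), and -0.66 (SE 0.22, unadjusted p = 0.0335, adjusted p = 0.185 from edgeR) without KO replicate 3. Without KO replicate 2 the change of Twist1 was -0.11. Twist2 (ENSMUSG00000007805) stood at 4.06, 4.68 and 5.77 CPM in WT and at 9.19, 5.56 and 9.23 CPM in KO. KO replicates 1 and 3 lay above every WT lesion and KO replicate 2 lay just under WT replicate 3. The log2 fold change was 0.73 (SE 0.28, unadjusted p = 0.041, adjusted p = 0.332 from edgeR), on 190 to 524 counts, and leaving out any one lesion gave 0.61 to 0.93.

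The SNAI genes encode zinc-finger repressors. Snai1 (ENSMUSG00000042821) stood at 4.87, 20.3 and 3.33 CPM in WT and at 1.65, 0.953 and 4.42 CPM in KO. WT replicate 2 was more than 4 times above every other library, and KO replicates 1 and 2 were the lowest. The log2 fold change of -2.02 (SE 0.90, adjusted p = 0.354 from edgeR) was the largest among the members, and it was -0.81 without WT replicate 2, the library rich in neutrophil markers, and -2.86 (SE 0.99, unadjusted p = 0.0353, adjusted p = 0.188 from edgeR) without KO replicate 3. It rests on 48 to 902 counts per library. Snai2 (ENSMUSG00000022676) went the other way, at 14.7, 11.9 and 16.2 CPM in WT and at 24.9, 15.6 and 35.8 CPM in KO. KO replicates 1 and 3 lay above every WT lesion and KO replicate 2 fell between WT replicates 1 and 3, with a log2 fold change of 0.83 (SE 0.32, unadjusted p = 0.0408, adjusted p = 0.332 from edgeR) while leaving out any one lesion gave 0.50 to 1.09. The exact two-sided permutation p of the 10 members was 0.2 to 0.8, where 0.1 is the smallest that 3 lesions against 3 allow.

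**Figure D2:**
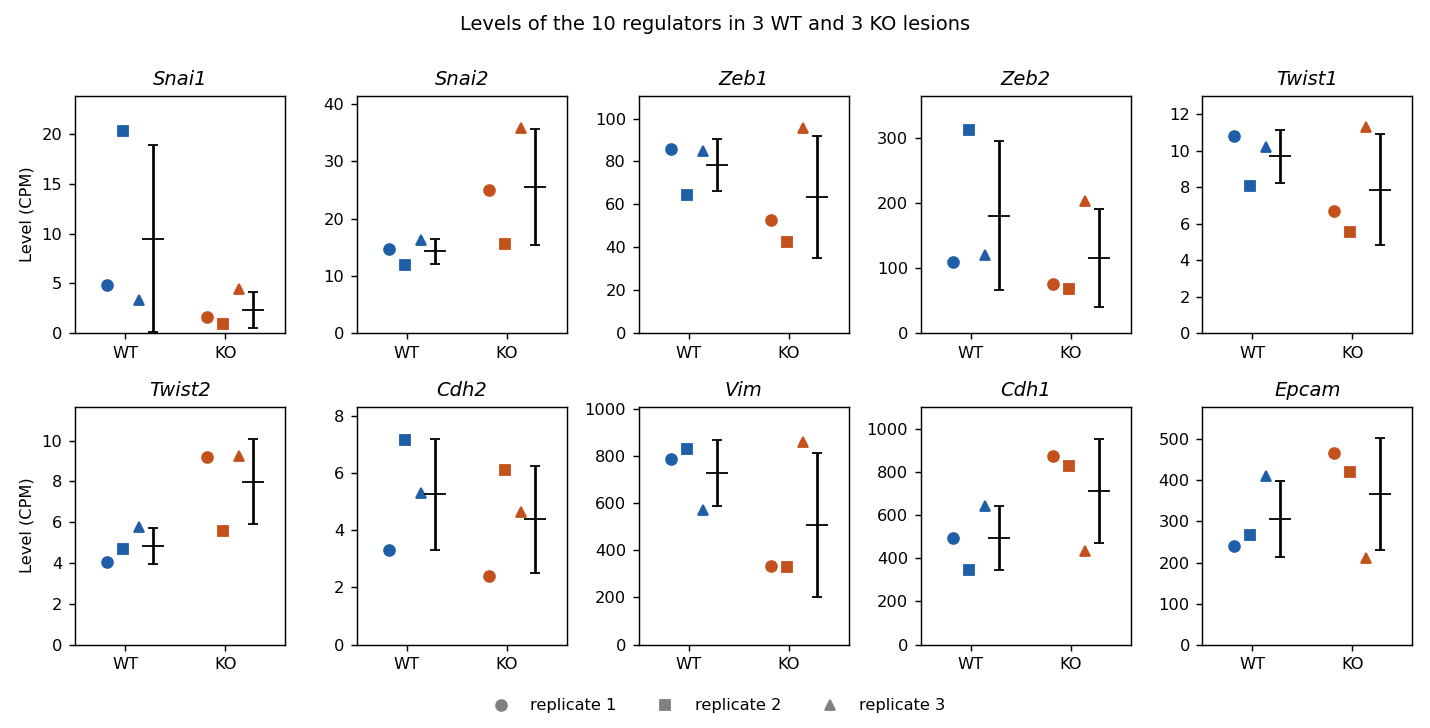
Level of each of the 10 regulators in CPM, one panel per gene with its own axis from 0, one point per library (circle, square and triangle for replicates 1, 2 and 3) and beside it the mean ± SD of the 3 lesions of each group. KO replicates 1 and 2 lie below the WT lesions in Zeb1, Zeb2, Twist1 and Vim and above them in Cdh1 and Epcam, while KO replicate 3 lies within the WT range or beyond its other end.

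The average over the members carried the same split, although Snai2, Twist2 and Cdh2 by themselves did not. The mean log2 CPM of Cdh1 and Epcam minus that of the other 8 members was 3.89, 3.24 and 4.43 in WT replicates 1, 2 and 3 and 5.19, 5.26 and 3.21 in KO replicates 1, 2 and 3. The means were 3.85 ± 0.60 in WT and 4.55 ± 1.17 in KO (SD, n = 3), a difference of 0.70 on the log2 scale that was smaller than the SD of the KO group. KO replicates 1 and 2 had the 2 highest values and KO replicate 3 the lowest. Without KO replicate 3, singled out here after its values were seen, the difference was 1.37. Leaving out any one of the other lesions gave 0.34 (without KO replicate 2) to 0.98 (without WT replicate 3). With KO replicate 3 left out, 5 of the 10 members had an unadjusted p under 0.05 (edgeR), Snai1, Zeb1, Twist1 and Vim lower and Cdh1 higher in KO, against 23.9% of all genes, and 0 of the 10 had an adjusted p under 0.05.

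**Figure D3:**
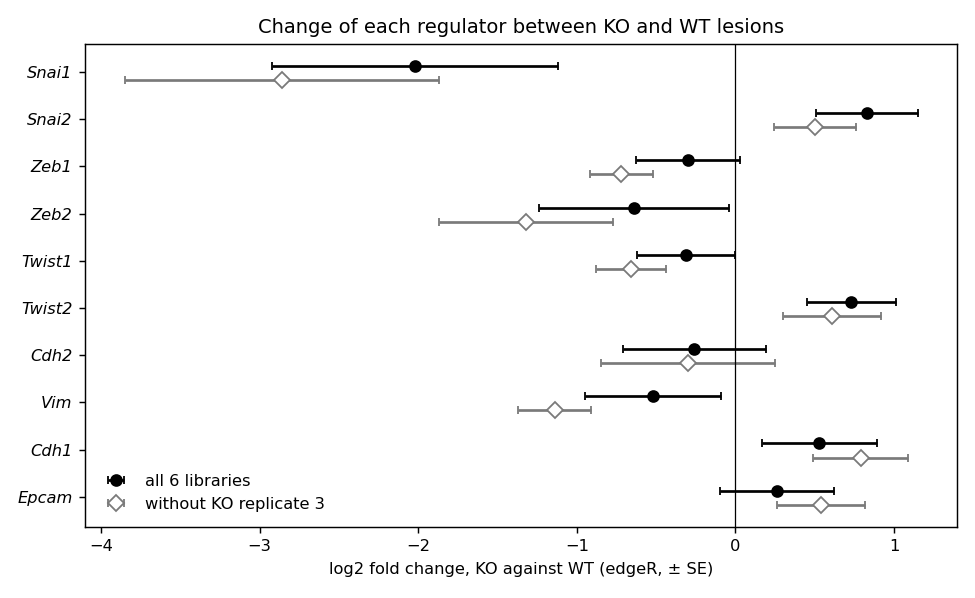
Log2 fold change of each regulator between KO and WT lesions from edgeR with its standard error, with all 6 libraries (filled) and without KO replicate 3 (open). Snai2, Twist2, Cdh1 and Epcam lie right of 0 and the other 6 left of it, and leaving out KO replicate 3 moved Vim from -0.52 to -1.14 and Zeb1 from -0.30 to -0.72.

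The ratios of Snai2 to Snai1 and of Twist2 to Twist1 did not overlap between the groups, and every other ratio taken did. Those of Cdh1 to Cdh2 and of Epcam to Vim, not detailed here, also overlapped. The ratios were chosen after the values were seen and are a description without a test. Among single genes 19.4% did not overlap, 10.7% with KO higher, and the share among ratios of gene pairs was not computed. Per kilobase of exon, Snai2 stood at 2.42, 0.471 and 3.9 times Snai1 in the WT lesions and at 12.1, 13.1 and 6.5 times Snai1 in the KO lesions. All 3 KO libraries lay above all 3 WT libraries, KO replicate 3 included, with a geometric mean of 10.1 in KO against 1.65 in WT, and the log2 difference of 2.62 was 1.72 without WT replicate 2. Twist2 stood at 0.192, 0.298 and 0.29 times Twist1 in WT and at 0.704, 0.513 and 0.421 times Twist1 in KO. Here too the groups did not overlap, and the ratio was 2.09-fold higher in KO, a log2 difference of 1.06 with SDs of 0.35 in WT and 0.37 in KO (n = 3). The ratio of Zeb2 to Zeb1 overlapped between the groups, at 0.652, 2.51 and 0.735 in WT and 0.747, 0.825 and 1.09 in KO. The ratio of Cdh1 to Vim was 0.654, 0.431 and 1.17 in WT and 2.72, 2.63 and 0.527 in KO, so that KO replicate 3 was within the WT range. Cdh1 and Epcam kept a ratio near 1 to each other, between 0.617 in WT replicate 2 and 0.991 in WT replicate 1 and KO replicate 3.

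**Figure D4:**
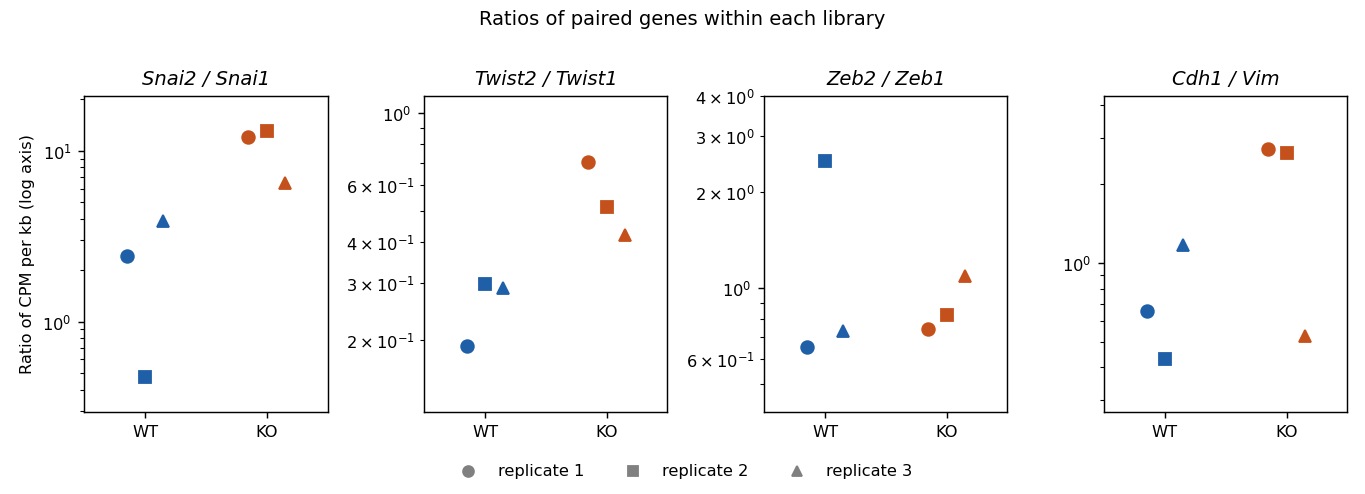
Ratio of 2 genes within each library, as CPM per kb of exon, on log axes, for Snai2 to Snai1, Twist2 to Twist1, Zeb2 to Zeb1 and Cdh1 to Vim. The 3 KO points lie above the 3 WT points for Snai2 to Snai1 and for Twist2 to Twist1, and the groups overlap for the other pairs.

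The other genes of epithelial identity followed Cdh1 and Epcam by library. Of 33 junction and identity genes, Cdh1 and Epcam included, 29 had a positive and 4 a negative log2 fold change, with a median of 0.53, against 51.4% positive and a median of 0.01 over all genes tested, and 0 had an adjusted p under 0.05 (edgeR). At the threshold of the study, 2 were higher, against 3.1% of all genes, and 2 lower, against 5.85%. Ovol2, a repressor of mesenchymal genes in epithelium, had a log2 fold change of 1.49 (SE 0.58, adjusted p = 0.332 from edgeR), at 3.02 to 8.84 CPM in WT and at 26.4, 19.3 and 7.46 CPM in KO. Prss8, the membrane protease prostasin, had 1.76 (SE 0.59, adjusted p = 0.328 from edgeR), at 7.92 to 13.7 CPM in WT and at 45.9, 53.2 and 11 CPM in KO. Both were high in KO replicates 1 and 2 and within the WT range in KO replicate 3. Against the list, Cldn4, a tight junction claudin, had -1.07 (SE 0.40, adjusted p = 0.332 from edgeR), and Ovol1, the paralog of Ovol2, had -1.73 (SE 0.40, adjusted p = 0.321 from edgeR). Ovol1 was at 1.08 to 1.62 CPM in WT and at 0.246 to 0.542 CPM in KO, without overlap. The 31 genes other than Cdh1 and Epcam stood on average 0.79 and 0.68 above the WT mean on the log2 scale in KO replicates 1 and 2, 0.27 below it in KO replicate 3, and between -0.31 and 0.29 in the WT lesions. Without KO replicate 3 the median of the 33 was 0.80, and 21 were higher at an unadjusted p under 0.05 (edgeR), against 11.5% of all genes, and 0 at an adjusted p under 0.05. That lesion was singled out after its values were seen, so this count restates the choice. Without WT replicate 2 the median was 0.37, and 0 were higher at an unadjusted p under 0.05 (edgeR), against 4.21% of all genes.

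Most genes of mesenchymal matrix and cytoskeleton followed Vim. Of 20 such genes, Cdh2 and Vim included, 3 had a positive and 17 a negative log2 fold change, with a median of -0.46, against 48.6% negative over all genes tested. Of the 20, 0 passed either threshold (edgeR), also 0 at an unadjusted p under 0.05. The 3 were Acta2, Tagln, at 0.58 (SE 0.40), and Cdh11, at 0.06 (SE 0.29). Acta2 and Tagln were highest of all libraries in KO replicate 1, at 1460 and 911 CPM, where Vim was low. The highest log2 fold change was 0.73 (SE 0.41) for Acta2, the actin of smooth muscle and myofibroblasts, and the lowest was -1.60 (SE 0.71) for S100a4, a calcium-binding protein of fibroblasts and leukocytes. The 18 genes other than Cdh2 and Vim stood on average 0.78 and 1.22 below the WT mean on the log2 scale in KO replicates 1 and 2 and 0.32 above it in KO replicate 3, and the WT lesions ran from -0.13 to 0.13. Without WT replicate 2 the median of the 20 was -0.41, and 0 were lower at the threshold of the study (edgeR), against 5.86% of all genes. KO replicate 3 was singled out after its values were seen, so the count without it restates that choice. Without KO replicate 3 the median of the 20 was -1.13, and 12 were lower at the threshold of the study, against 8.66% of all genes, and 0 at an adjusted p under 0.05 (edgeR). Of these, chosen after their values were seen, the collagen gene Col1a1 stood at 2247 to 2784 CPM in WT and at 1316, 720 and 3446 CPM in KO, and the fibronectin gene Fn1 at 838 to 2134 CPM in WT and at 465, 427 and 2047 CPM in KO. KO replicate 3 was again at or near the top.

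**Figure D5:**
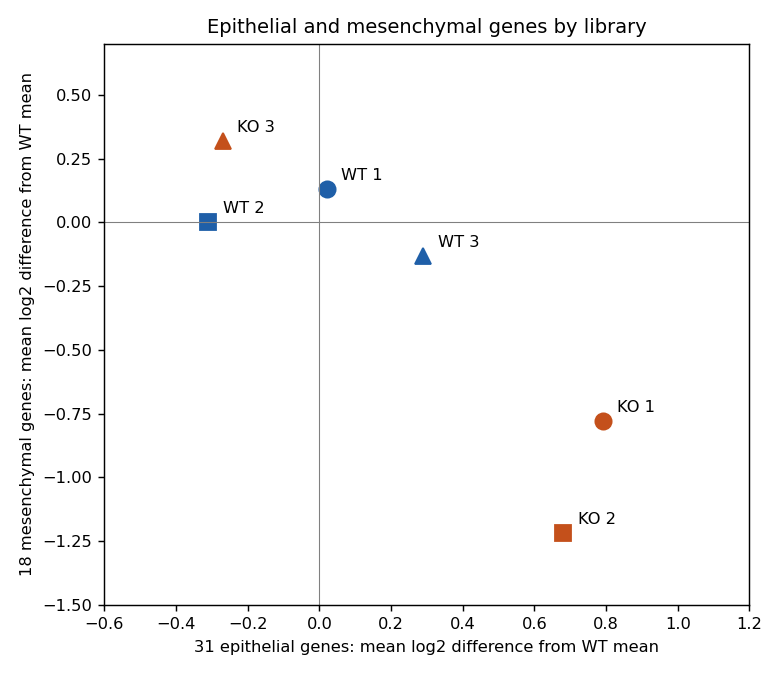
Mean log2 difference from the WT mean in each library, for 31 epithelial genes without Cdh1 and Epcam (horizontal axis) and 18 mesenchymal genes without Cdh2 and Vim (vertical axis). KO replicates 1 and 2 lie at 0.79 and -0.78 and at 0.68 and -1.22, and KO replicate 3 lies at -0.27 and 0.32, beside the WT lesions.

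Markers of other cell types went with this split. The 8 endothelial markers stood on average 0.64 and 1.16 below the WT mean on the log2 scale in KO replicates 1 and 2 and 0.29 above it in KO replicate 3, and their sum was 568 to 689 CPM in WT, against 369, 261 and 734 CPM in KO. The sum of the endometrial epithelium markers was 47038, 34910 and 22395 CPM in KO replicates 1, 2 and 3, in the order of Cdh1. Nearly all of this sum came from Ltf, the lactoferrin gene, at 33570, 25488 and 15673 CPM, and Lcn2, the lipocalin 2 gene, at 12590, 8787 and 6285 CPM. Pax8, a transcription factor of the uterine epithelium, was at 71.8, 72.4 and 24.1 CPM in the same libraries, but the Wnt ligand gene Wnt7a ran the other way, at 16.9, 14.8 and 42.6 CPM, and Wnt7b, at 77.3, 58.1 and 71.1 CPM, did not follow Cdh1. Adipocyte markers were at 606, 1201 and 5397 CPM in the same libraries. Macrophage markers were at 744, 542 and 1396 CPM there, and T cell markers at 11, 7.51 and 26.3 CPM, against 33.2 to 93.4 CPM in WT. The part of these cells in the levels of the members was not tested.

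The 8 listed markers of the endometrial stroma did not follow Vim. Of the 8, 7 had a positive log2 fold change, with a median of 0.81, and the sum was 335 to 565 CPM in WT, against 820, 808 and 539 CPM in KO replicates 1, 2 and 3, with 0 of the 8 at an adjusted p under 0.05 (edgeR). Most of this sum came from Esr1, the estrogen receptor α gene, at 387, 445 and 226 CPM in KO, and Pgr, at 255, 240 and 151 CPM. Both were lowest among the KO lesions in replicate 3, as was Cdh1. Nr2f2 was flat, at -0.01 (SE 0.13), and Hoxd11, at 0.42 (SE 0.37), overlapped between the groups. Of the 8, 4 were higher in every KO than in every WT lesion, against 10.7% of all genes. Among these 4 were the 3 that the study's threshold calls higher, against 3.1% of all genes, namely Hoxa11 at 1.05 (SE 0.31), Hand2 at 1.02 (SE 0.26) and Esr1 at 1.13 (SE 0.39). Without WT replicate 2 that threshold called 1 of the 8 higher, against 2.1% of all genes. Hand2, a stromal transcription factor, stood at 2.05 to 2.79 CPM in WT and at 5.96, 5.12 and 4.21 CPM in KO. In these 4 genes all 3 KO lesions lay above all WT lesions, KO replicate 3 included, which is the arrangement of the ratios of Snai2 to Snai1 and of Twist2 to Twist1. Smooth muscle markers had it too. Of 7, the 5 genes Myh11, Cnn1, Actg2, Smtn and Lmod1 were higher in every KO than in every WT lesion and at an unadjusted p under 0.05 (edgeR), against 10.7% and 6.55% of all genes, with 0 of the 7 at an adjusted p under 0.05. Actg2, the enteric smooth muscle actin gene, stood at 109, 62.3 and 107 CPM in WT and at 318, 169 and 231 CPM in KO replicates 1, 2 and 3, lowest among the KO lesions in replicate 2, as were Snai2 and Twist2. The other two, Des and Synpo2, had negative log2 fold changes of -2.16 (SE 1.02) and -0.49 (SE 0.62) and were highest in WT replicates 1 and 3, the libraries rich in skeletal muscle markers. The part of stromal and smooth muscle cells in the levels of Snai2 and Twist2 was not tested. Pgr, the gene whose promoter drives the Cre, stood at 135 to 227 CPM in WT and at 255, 240 and 151 CPM in KO.

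Of 13 tested transcription factors that are tied to the transition in other settings, 3 were lower at the study's threshold, against 5.85% of all genes, and 0 had an adjusted p under 0.05 (edgeR). Snai3, the third SNAI gene, stood at 5.23, 0.855 and 4.10 CPM in WT and at 0.0702, 0.0397 and 0.396 CPM in KO, a log2 fold change of -4.33 (SE 1.10, adjusted p = 0.321 from edgeR) that rests on as few as 2 counts. It was highest in WT replicates 1 and 3, the libraries rich in skeletal muscle markers, and without these 2 its log2 fold change was -2.34. The share of muscle in this level was not tested. Lef1, a factor of Wnt signalling and of lymphocytes, had -1.77 (SE 0.55), at 0.641 to 2.16 CPM in WT and at 0.246 to 0.458 CPM in KO, and T cell markers were also higher in every WT than in every KO lesion. Foxc1, a forkhead factor named here after its values were seen, stood at 10.7 to 19.2 CPM in WT and at 22.4 to 28.9 CPM in KO, without overlap, with 0.74 (SE 0.25).

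Of 14 signals that can start the transition and their transducers, 2 had a positive and 12 a negative log2 fold change, with a median of -0.16, and 0 passed either threshold (edgeR). At an unadjusted p under 0.05 alone, 2 were lower, against 8.16% of all genes. The highest value was 0.23 (SE 0.13) for Jag1, a Notch ligand, and the lowest was -0.85 (SE 0.41) for Tgfb1, the main TGF-β ligand. Tgfb1 was at 77.2 CPM in WT replicate 2 and at 18.4 to 42.3 CPM in the others, and its log2 fold change was -0.45 without that library. Smad3, which carries the TGF-β signal to the nucleus, was named after its values were seen. It stood at 62.1, 62.9 and 67.6 CPM in WT and at 31.6, 36.5 and 44.1 CPM in KO, without overlap, with a log2 fold change of -0.78 (SE 0.15, unadjusted p = 0.00224, adjusted p = 0.321 from edgeR) that was -0.91 to -0.67 when any one lesion was left out.

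Corepressors and turnover factors of the SNAI and ZEB proteins lay near 0. Of 12, 7 had a positive and 5 a negative log2 fold change, with a median of 0.08, and 0 passed either threshold or an unadjusted p under 0.05 (edgeR). The extremes were 0.32 (SE 0.19) for Hdac2, a histone deacetylase, and -0.17 (SE 0.18) for Fbxl14, a ubiquitin ligase subunit. Of 14 other cadherins and catenins, 11 were tested, and 1 was higher, against 3.1% of all genes, and 2 were lower, against 5.85%, at the study's threshold, with 0 at an adjusted p under 0.05 (edgeR). Cdh4, which encodes R-cadherin, stood at 2.99, 0.540 and 0.812 CPM in WT and at 13.3, 17.1 and 3.29 CPM in KO, with a log2 fold change of 2.95 (SE 0.89, adjusted p = 0.325 from edgeR). Every KO lesion lay above every WT lesion, but KO replicate 3 by little. Cdh13, a cadherin anchored to the membrane by a lipid, stood at 83.9, 35.4 and 60.0 CPM in WT and at 19.1, 12.3 and 35.2 CPM in KO, with -1.43 (SE 0.48, adjusted p = 0.328 from edgeR). Cdh17, an intestinal cadherin, was under 1 CPM in every library, with -1.43 (SE 0.40).

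The genes nearest to each member were sought by the mean absolute difference of centred log2 CPM over the 6 libraries, among tested genes with a mean of at least 1 CPM. Zeb1 and Twist1 were near one another, at 0.05, Twist1 being the gene nearest to Zeb1, and the uncharacterised gene C030006K11Rik stood close to both. Nearest to Cdh1 were the pseudogene Krt8-ps, whose reads may be shared with Krt8, at 0.04, and Sh3bgrl2 and Tmcc3, each at 0.06. Nearest to Snai1 were the leukocyte genes Selplg, at 0.12, and C5ar1, at 0.17, and between them the chemokine gene Ccl2, at 0.15, all with their highest value in WT replicate 2. Zeb2 was nearest to Cd302, at 0.07, then Cpxm1 and Siglech. Vim was nearest to Pcdhgc3, at 0.07, then Csf1 and Medag, Epcam to Orc1, at 0.05, then Kif5c and Zdhhc15, and Twist2 to Radil, at 0.09, then Matn2 and Chsy1. Snai2 and Cdh2 had no gene as near, Bean1 at 0.14 being the first for Snai2 and Bmp3 at 0.16 the first for Cdh2. These likenesses come from the same 6 libraries, with their depth and mixture of cells, and are a description.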

How the data were processed

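Messenger RNA of 3 WT and 3 KO lesions was sequenced from Illumina TruSeq stranded libraries. The values the authors deposited are whole-number counts per gene. The submitters' processing notes name Trimmomatic, featureCounts, DESeq2 and GRCm39, whereas the methods of the study name GRCm38, and the aligner and annotation release are not given in the sources used here. Symbols were matched by Ensembl ID without version to GENCODE M21 (51948 of 56884 IDs, 35 with the same version), which also gave exon lengths, so CPM per kb is approximate. IDs without a symbol held 3.04% to 3.56% of counts. Of counts between 1 and 100, 87.2% to 88.6% were even, as when both mates of a read pair are counted, so the counts overstate the number of independent fragments. Totals were 45370342 to 57239184 counts per library.

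The tests used edgeR 4.0.16 under R 4.3.3 (filterByExpr, TMM, quasi-likelihood test), with group as the only term, and adjusted over the 18177 genes tested. A standard error is the size of the log2 change over the root of its F statistic. The common biological coefficient of variation was 44.2%. For scores, 0.1 CPM was added before the log. On simulated data of the KO against WT comparison over 18177 genes, with 200 genes given a log2 change of 3, 75% were recovered with 9 false calls. That change is larger than any fitted for a member, the largest being -2.02 for Snai1. Recovery of changes of the members' size was not simulated. No covariate was available in the labels, and replicate numbers did not pair the libraries.

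The members and lists were chosen with earlier results of these data known. Named were the members, Dnmt3a, every list gene past a threshold, otherwise the highest and lowest of a list, and the 3 genes nearest to each member, with exceptions stated. Alternatives were DESeq2 size factors, upper quartile scaling, no filter beyond 1 count, a minimum of 10 counts in every library, DESeq2 1.42.0, limma 3.58.1 voom with quality weights, a replicate block, each lesion left out, other added values and, chosen after seeing the data, WT replicates 1 and 3 left out together. Protein sequences were not used here. One gene of a list that the rule would name is not reported here.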

Additional observations from a re-analysis of the deposited data

How the results depend on the processing

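Over 14 alternatives, 151 of 154 log2 fold changes of the members and Dnmt3a kept their sign, and no member had an adjusted p under 0.05 (lowest 0.1). The 3 that turned were Zeb2 without WT replicate 2 (0.01) and Cdh2 without WT replicate 2 and without KO replicate 1 (0.03 each). Dnmt3a passed only with DESeq2 (adjusted p = 0.0447). The difference of the epithelial and mesenchymal members between KO and WT stayed positive, at 0.34 to 1.37 with each lesion left out and 0.28 by medians. With each lesion left out, Zeb2 ran from -1.32 to 0.01 and Cdh2 from -0.58 to 0.03.

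Members past an unadjusted p under 0.05 with a log2 fold change beyond 1 numbered 0, but 1 (Snai1) with DESeq2 (8.84% of all genes) and with limma voom (13.1%). With each lesion left out they numbered 0 to 2, the 2 being Snai1 and Vim without KO replicate 3 (14% of all genes). Those at an unadjusted p under 0.05 numbered 2, but 4 with limma voom (Snai1, Twist1, Vim and Zeb1, against 30.1% of all genes) and 1 with the replicate block (Snai2). With each lesion left out they numbered 0 to 5. They were 5 without KO replicate 3 (23.9% of all genes) and 0 without WT replicate 2 (13.9%) or without replicate 1 of either group. For the replicate block and the other lesions left out, the share of all genes was not computed. Snai2 and Twist2 both stayed under 0.05 only when KO replicate 2 was the lesion left out.

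Over all genes, those higher at an adjusted p under 0.05 numbered 0, 307 with DESeq2 and 0 to 2 with each lesion left out. Those lower numbered 1, then 0 with DESeq2 size factors, upper quartile scaling, the replicate block or without WT replicates 1 and 3, 770 with DESeq2, 12 with limma voom and 0 to 396 with each lesion left out, 396 being without WT replicate 2. Past the threshold of the study, 564 were higher, 855 with limma voom, 372 with the replicate block and 280 to 1021 with each lesion left out. There, 1064 were lower, 1652 with no filter beyond 1 count, 1839 with DESeq2, 573 with the replicate block, 1625 without WT replicates 1 and 3 and 551 to 1650 with each lesion left out. Same-numbered libraries did not deviate together (r = 0.03, -0.15 and -0.20). Upper quartile scaling moved the median of all genes to 0.11. The cause of these changes was not tested. Snai1, Cdh2 and Twist2 had the fewest counts, down to 48, 136 and 190 in a library.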
